A study of Mus musculus with 152 samples.

Results

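Stellate cell and myofibroblast markers are 10 genes, taken by symbol from the 54532 Ensembl genes in each of 7 expression tables of mouse liver: Acta2, Tagln, Des, Pdgfra, Pdgfrb, Reln, Rgs5, Hgf, Hand2 and Tgfb1. All 10 were found. Livers of C57BL/6J mice, an inbred strain, fed LIDPAD were compared with livers of C57BL/6J mice on a purified control diet. LIDPAD is the diet the study used to induce non-alcoholic fatty liver disease. Mice were 8 weeks old when feeding began, and livers were taken after 1, 4, 8, 12, 16, 32 or 48 weeks of it, giving 14 groups. The labels give neither sex nor any other treatment. Each of the 38 libraries (18 control, 20 LIDPAD) is the mean of 4 deposited columns, which differed from each other about as much as repeated sampling of read pairs would. Each diet had 2 libraries at weeks 1, 4, 8 and 12 and 3 at week 16. Week 32 had 4 libraries of controls with 5 of LIDPAD, and week 48 had 3 with 4. Nothing states that libraries came from separate animals, so the p-values speak only to how far these libraries vary, and that variation could be technical.

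Hepatic stellate cells lie between hepatocytes and the sinusoidal endothelium, where they store vitamin A as retinyl ester and act as the pericytes of the sinusoid. On injury they lose the vitamin A droplets, take up a contractile program with smooth muscle actin, and lay down fibrillar collagen as myofibroblasts. Platelet-derived growth factor, received by PDGF receptors, drives their growth, and transforming growth factor beta drives their matrix production. Portal fibroblasts and vascular smooth muscle share several of these markers, so no marker here belongs to stellate cells alone.

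Values are FPM, reads divided by a size factor and expressed per 1000000. Depth was 10.9 to 53.8 M (1000000 reads) per library, with a median of 29.0 M. The summed level of 8 hepatocyte markers was 28600 to 108200 FPM in the 38 libraries. The highest was in a LIDPAD library of week 32, a group with a median of 36840 FPM. Within 3 groups a library stood apart by chi-square per gene, a measure that is near 2 within a library. It was 19.1 to 20.1 between the 2 controls of week 4, and the measure cannot say which of them is apart. It was 27.3 to 29.3 between control library 3 of week 48 and the other 2. LIDPAD library 1 of week 32 differed from the other 4 by 23.3 to 31.4 in a group whose other pairs reached 23.4, and it had the lowest depth of all. By contrast, LIDPAD libraries 4 and 5 of week 32 differed by only 2.65 to 3.09. LIDPAD libraries 2 and 4 of week 48 were nearly as close, at 2.995 to 3.18, and no test counted them as 1. At week 32, control libraries 1 to 3 and LIDPAD libraries 1 to 3 also shared one pattern of how reads were divided among their 4 columns, and the remaining 3 libraries shared the pattern of week 48. Results that turn on these libraries are given with and without them. The main results keep every library. Where the libraries that stand apart were left out, control library 2 was the one dropped at week 4, a choice made after seeing the data. Joint results are also given with control library 1 left out in its place and with both kept.

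Acta2, which encodes the smooth muscle actin that defines a myofibroblast, carried the only matches to the regulatory motifs searched for in 8 of the 10 markers. In the RefSeq table for GRCm38.p6, 8 of the 10 genes had a window of 250 bases before the start. The windows were searched on both strands for the CArG box, the site of serum response factor (a CC, a core of A and T, and a GG), for a CArG-like form with 1 core base that is C or G, and for TATAAA. The Acta2 window held 2 CArG-like matches, and the windows of the other 7 genes (Hgf has 2 starts) held no match to any of these motifs. The stretches are printed to show both matches, which are in capitals, 5′ to 3′ on the minus strand, on which Acta2 is read:
Acta2, chr19:34255438-34255467: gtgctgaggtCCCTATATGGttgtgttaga
Acta2, chr19:34255388-34255417: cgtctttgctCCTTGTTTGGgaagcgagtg
These matches begin 84 and 34 bases before the RefSeq start. GENCODE begins the gene farther upstream, and 217 of the 250 bases lie in an exon there. Of 32851 windows, 7.25% held at least 1 CArG-like match, 0.548% held 2 or more, 1.47% held a CArG box and 12.4% held TATAAA. A match describes these letters only and is no measured site.

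Of the 9 markers that could be tested, 7 rose in LIDPAD livers at week 16, 5 at week 32 and 6 at week 48, and none fell in any week. In bulk tissue, more cells of a type and more RNA per cell cannot be told apart. A gene was tested in a week where the number of libraries with 1 FPM or more reached the size of its smaller group. Tagln passed this filter in no week. Calls are limma adjusted p-values under 0.05, and a log2 change is the mean of log2(FPM + 0.5) in LIDPAD livers minus that in controls, a scale on which low genes change by less than their ratio. Week 12 had 2 risers, Acta2 and Pdgfrb. The median log2 change of the 9 markers was 0.06, -0.29, 0.20, 0.22, 0.83, 0.91 and 0.71 from week 1 to week 48, while the median over all tested genes stayed between -0.01 and 0.04. The share of all tested genes called higher was 0.726% at week 1, 0.121% at week 4, 3.85% at week 8, 8.99% at week 12, 16.3% at week 16, 18.0% at week 32 and 6.54% at week 48. At weeks 1, 4 and 8, limma called 0 markers, edgeR on whole reads also called 0, and 1 marker per week had an unadjusted p under 0.05 (Hgf, Hgf and Pdgfrb). Of all tested genes, 1965 of 12538, 1457 of 13237 and 3241 of 13271 had such an unadjusted limma p in those weeks. Mitochondrial ribosomal RNA took 20.0 to 21.2% of reads in controls and 20.6 to 21.4% in LIDPAD livers at week 16, and 18.3 to 23.0% and 20.9 to 30.2% at week 32. At week 48 it took 23.0, 23.2 and 26.0% in the controls, with control library 3 highest, and 23.8 to 26.3% in LIDPAD livers. Its part in the marker counts was not tested. Rescaling each library to a total of 1000000 raised the median change of all genes by 0.11, 0.19, 0.20, 0.29 and 0.26 at weeks 8, 12, 16, 32 and 48. With it, the share of called genes that were higher went from 57.6 to 83.1% at week 16, from 67.2 to 91.8% at week 32 and from 66.2 to 93.8% at week 48. It went from 68.8 to 84.5% at week 8 and from 59.0 to 82.7% at week 12.

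**Figure D1:**
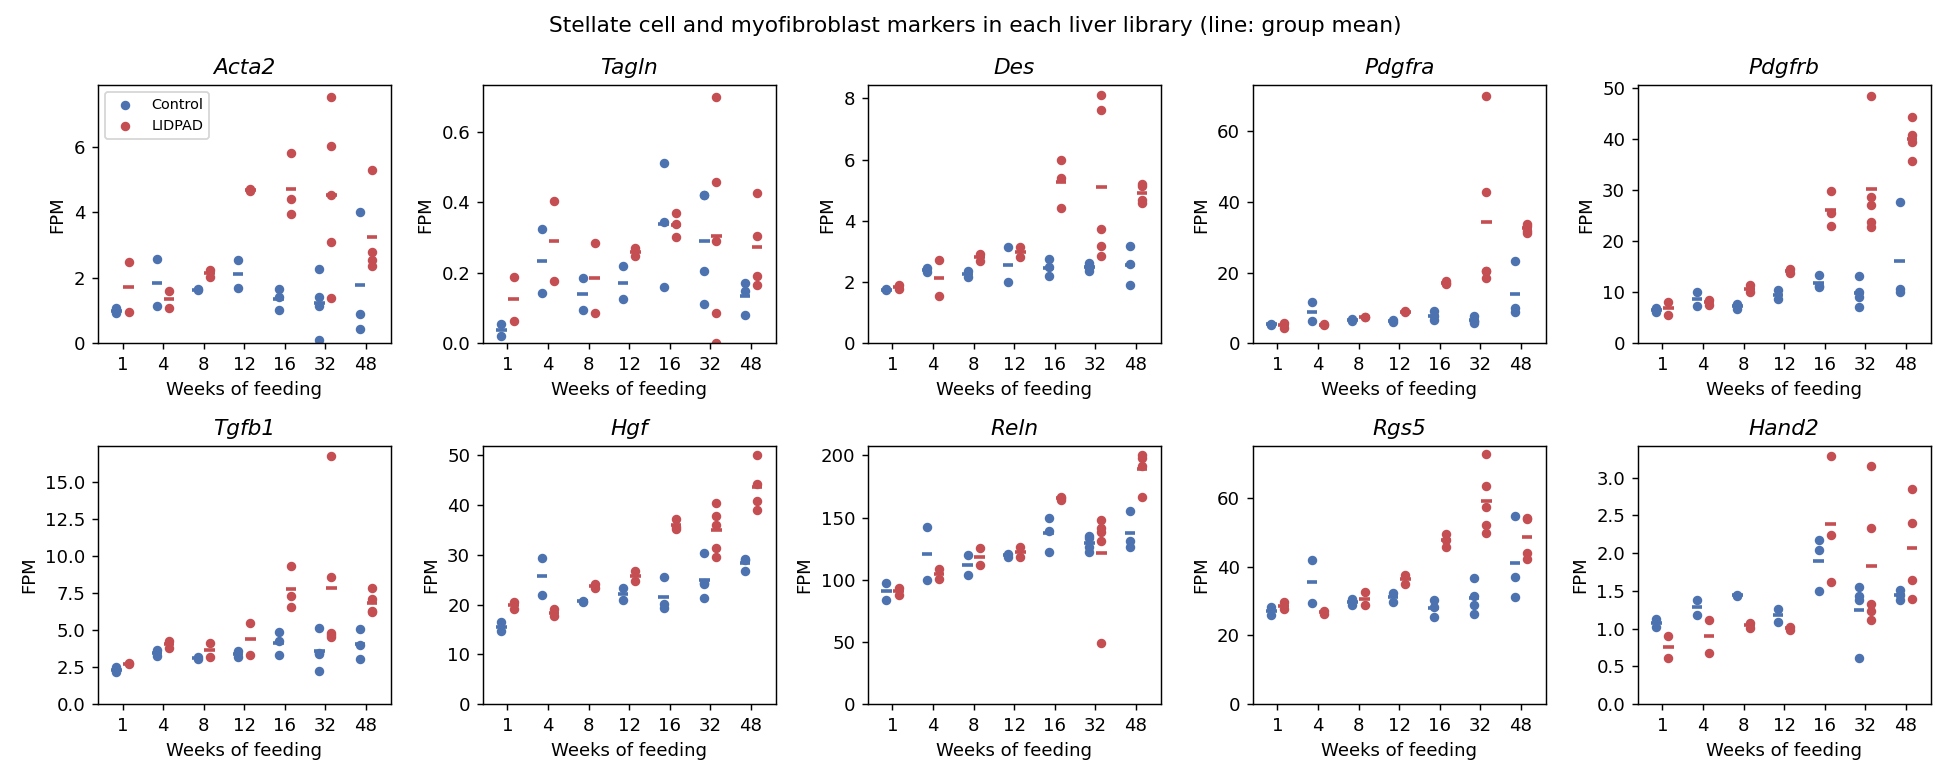
Level of each marker in FPM (linear axis from 0) in every library, by weeks of feeding; points are libraries, short lines are group means, blue is control and red is LIDPAD. From week 16 the red points of Pdgfra and Pdgfrb lie above all blue points of their week, whereas the Hand2 points lie lower in red up to week 12 and overlap from week 16, and the Tagln points overlap in all weeks but 1 and 12. Of all tested genes, 21.3 to 29.3% had every LIDPAD library above every control at weeks 1 to 12, and 14.1 to 23.5% from week 16. The share with every LIDPAD library below every control, as for Hand2 up to week 12, was not counted. Hand2 was called in no week.

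**Figure D2:**
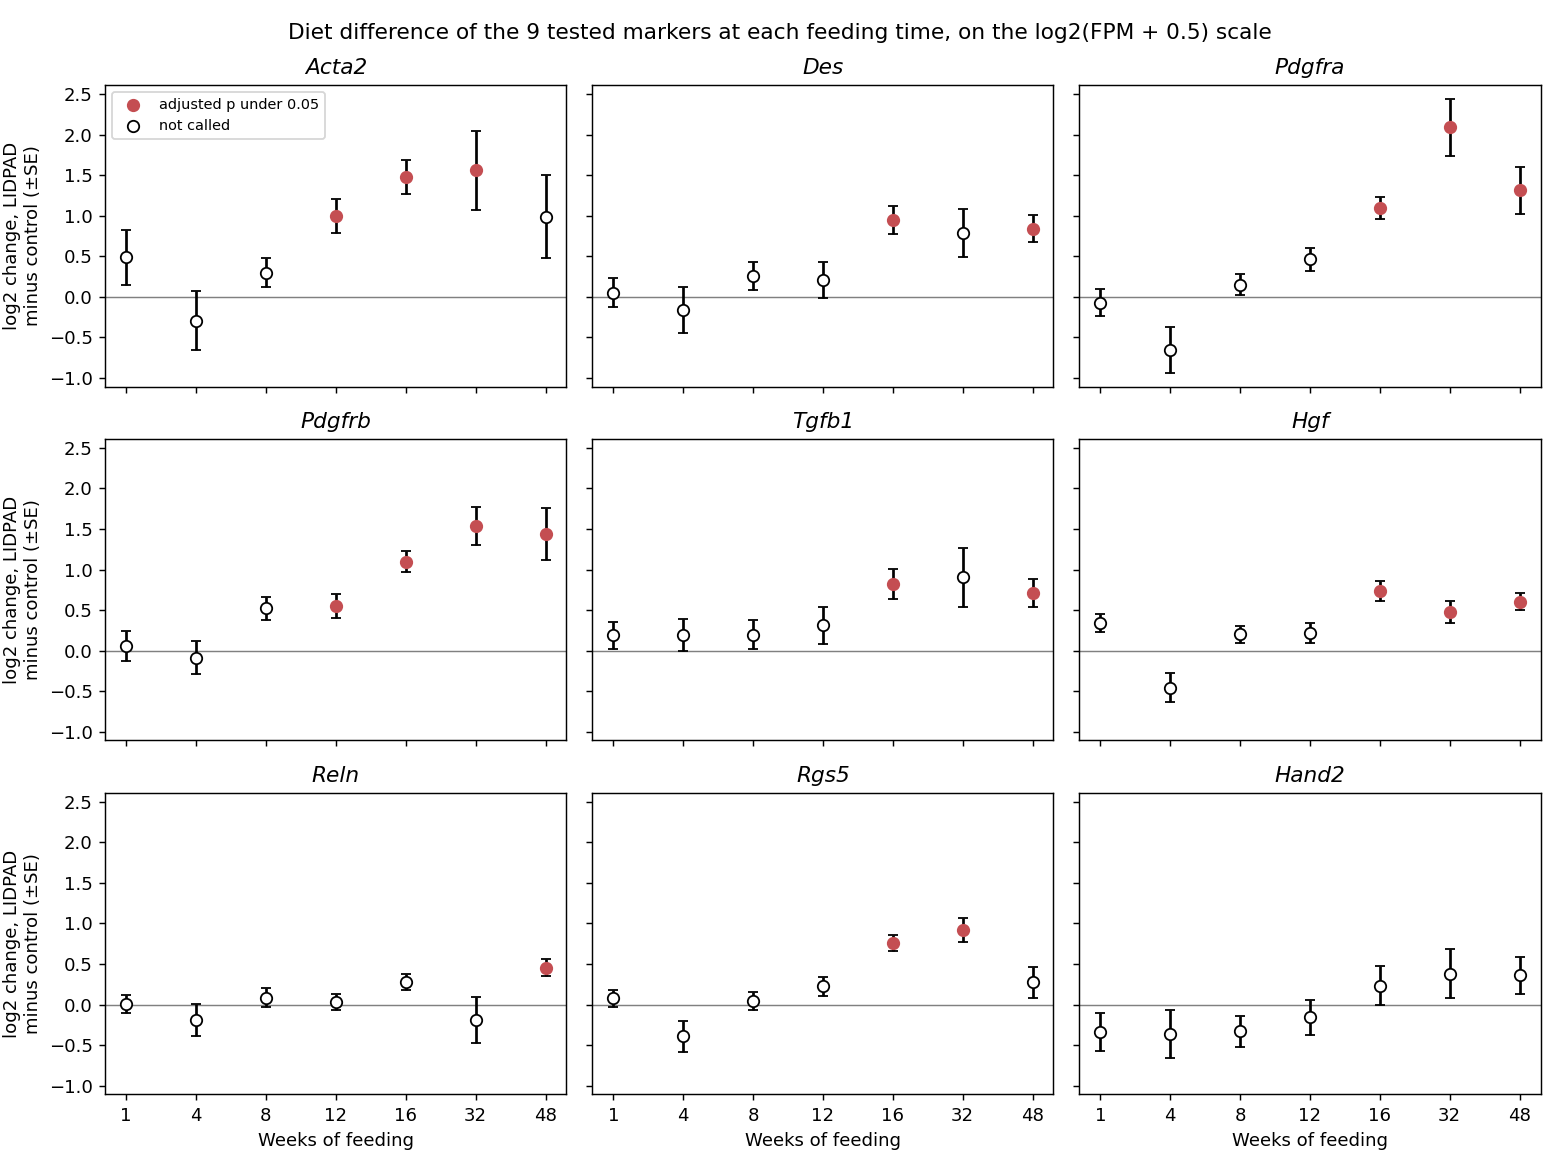
Log2 change of the 9 tested markers, LIDPAD minus control, with its standard error at each feeding time; filled points have a limma adjusted p under 0.05. Filled points begin at week 12 in Acta2 and Pdgfrb, Hand2 has none, and Reln has a single one at week 48.

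The contractile and filament genes moved unequally. Acta2 (ENSMUSG00000035783, GRCm38 chromosome 19, 34241090 to 34255590) was low and was first called at week 12, as Pdgfrb was. At week 12 its level was 2.55 and 1.70 FPM in the control libraries and 4.65 and 4.70 FPM in the LIDPAD libraries. These rest on 70 to 189 reads per library, and the groups did not overlap. Of all tested genes, 29.3% had both LIDPAD libraries above both controls at week 12. The log2 change of Acta2 was 1.00 ± 0.21 (SE; adjusted p = 0.013), and it missed the threshold without LIDPAD library 2 (adjusted p = 0.055). At week 16 controls had 1.43, 1.02 and 1.67 FPM and LIDPAD livers 3.96, 5.80 and 4.40 FPM, a ratio of means of 3.44. That change of 1.48 ± 0.21 (adjusted p = 0.00043) was called under all 12 alternatives, and only 2.93% of tested genes changed by more in the same direction. At week 32 control libraries had 0.109, 2.28, 1.42 and 1.14 FPM and LIDPAD libraries 1.40, 3.10, 7.51, 4.54 and 6.01 FPM. The groups overlapped, the lowest control rests on 2 reads, and the change of 1.56 ± 0.49 (adjusted p = 0.035) was lost in 9 of 17 alternatives. That number leaves out the column pattern with 1 control and 2 nearly alike LIDPAD libraries, whose tests are not counted at week 32. Leaving out control library 1, 3 or 4 or LIDPAD library 3, 4 or 5 was enough to lose it, as was counting LIDPAD libraries 4 and 5 as 1 (adjusted p = 0.065). Within the column pattern of the first 3 libraries of each diet it was 1.36 (adjusted p = 0.18), and within that of the other 3 libraries, 1 control and 2 LIDPAD, it was 1.81. At week 48 controls had 0.900, 0.437 and 4.02 FPM and LIDPAD livers 5.28, 2.78, 2.38 and 2.55 FPM. Control library 3 lay above 3 of the 4 LIDPAD libraries there, and the change of 0.99 ± 0.51 was not called (adjusted p = 0.26). Without that library it was 1.65 (adjusted p = 0.0013).

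Des (ENSMUSG00000026208, chromosome 1, 75360329 to 75368579) encodes desmin, the intermediate filament of muscle and of rodent stellate cells. Its control level stayed between 1.73 and 3.20 FPM over all weeks. Control libraries of week 16 had 2.49, 2.20 and 2.74 FPM and LIDPAD livers 5.99, 5.41 and 4.42 FPM. That change of 0.95 ± 0.17 (adjusted p = 0.0021) held in all 12 alternatives. At week 32 controls had 2.53, 2.48, 2.37 and 2.61 FPM and LIDPAD livers 8.11, 2.84, 7.62, 3.19 and 3.75 FPM. No LIDPAD library lay as low as a control, but libraries 1 and 3 were more than 2 times the others, and the change of 0.78 ± 0.29 was not called (adjusted p = 0.071). It was called with totals rescaled (1.05, adjusted p = 0.026) and without LIDPAD library 2 (0.94, adjusted p = 0.033). Week 48 controls had 1.92, 2.58 and 3.20 FPM and LIDPAD livers 4.70, 4.58, 5.13 and 5.22 FPM, a change of 0.84 ± 0.17 (adjusted p = 0.023).

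Tagln (ENSMUSG00000032085, chromosome 9, 45929619 to 45936058) encodes transgelin, an actin-binding protein of smooth muscle and of myofibroblasts. It had 0 to 17 reads per library and at most 0.697 FPM, so no change of it could be measured at this depth. At week 16 its mean was 0.338 ± 0.176 FPM in controls (SD, n = 3) and 0.336 ± 0.035 FPM in LIDPAD livers (n = 3), and at week 48 it was 0.134 ± 0.048 (n = 3) and 0.272 ± 0.119 (n = 4). Its exons share 67.9% of their bases with genes on the opposite strand, 62.4% with Gm48529 and 5.43% with Pcsk7, and the strand setting of the counting is not given in the sources used here. Reads of these genes cannot be told apart from its own.

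Both PDGF receptor genes were called higher at weeks 16, 32 and 48. Pdgfra (ENSMUSG00000029231, chromosome 5, 75152292 to 75198215) encodes the alpha receptor, which is high in quiescent stellate cells and fibroblasts. Before week 12 it lay between 4.42 and 11.6 FPM in every library of either diet. At week 12 it was 6.09 and 6.56 FPM in controls and 9.03 and 8.80 FPM in LIDPAD livers, a change of 0.46 ± 0.14 that was not called (adjusted p = 0.064). At week 16 controls had 7.63, 6.70 and 9.13 FPM and LIDPAD livers 17.5, 17.1 and 16.9 FPM, a change of 1.10 ± 0.13 (adjusted p = 0.00016). Control libraries of week 32 had 6.40, 5.89, 6.46 and 7.73 FPM and LIDPAD livers 69.6, 20.4, 42.8, 18.6 and 20.4 FPM. Every LIDPAD library was more than 2 times the highest control, and library 1 stood highest. The change of 2.09 ± 0.35 (adjusted p = 0.0016; ratio of means 5.19) was called in all 17 alternatives counted. It was 2.56 within the column pattern of the first 3 libraries of each diet and 1.28 within that of the other 3, and 1.79 without library 1. At week 48 controls had 8.74, 10.1 and 23.3 FPM and LIDPAD livers 31.3, 31.6, 33.1 and 33.8 FPM, a change of 1.31 ± 0.29 (adjusted p = 0.031). Control library 3 had over 2 times the level of the other controls and was still below every LIDPAD library.

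Pdgfrb (ENSMUSG00000024620, chromosome 18, 61045150 to 61085061) encodes the beta receptor, which rises as stellate cells activate. It was called at every time from week 12. At week 8 it was 7.84 and 6.85 FPM in controls and 10.1 and 11.5 FPM in LIDPAD livers, a change of 0.52 ± 0.14 (adjusted p = 0.079). At week 12 it was 8.64 and 10.5 FPM in controls and 14.6 and 13.8 FPM in LIDPAD livers, a change of 0.55 ± 0.14 (adjusted p = 0.034) that was lost without control library 1 or without either LIDPAD library, and with no filter on low values. Week 16 controls had 11.1, 11.3 and 13.5 FPM and LIDPAD livers 29.9, 23.1 and 25.5 FPM, a change of 1.10 ± 0.13 (adjusted p = 0.00013). At week 32 controls had 9.08, 7.24, 13.2 and 10.1 FPM and LIDPAD livers 23.9, 28.8, 48.6, 22.8 and 27.3 FPM. Here library 3, not library 1, was highest, and the change of 1.54 ± 0.23 (adjusted p = 0.00083) was called in all 17 alternatives counted, with 1.70 and 1.27 (first 3 libraries of each diet, other 3) within the column patterns. Control libraries of week 48 had 10.7, 10.1 and 27.8 FPM and LIDPAD livers 39.5, 35.8, 44.4 and 41.0 FPM, a change of 1.44 ± 0.32 (adjusted p = 0.030). Only 2.02% of tested genes changed by more in this direction at week 48.

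The secreted factors rose less. Tgfb1 (ENSMUSG00000002603, chromosome 7, 25687002 to 25705077) encodes transforming growth factor beta 1, made by macrophages, platelets and stellate cells. At week 16 controls had 3.31, 4.26 and 4.88 FPM and LIDPAD livers 7.31, 6.57 and 9.36 FPM, a change of 0.83 ± 0.18 (adjusted p = 0.0062). Week 32 controls had 3.47, 5.14, 3.40 and 2.25 FPM and LIDPAD livers 4.57, 16.7, 8.60, 4.66 and 4.81 FPM. LIDPAD library 2 was far above the others, 3 LIDPAD libraries lay under the highest control, and the change of 0.91 ± 0.36 was not called (adjusted p = 0.090), but it was called with totals rescaled (1.18, adjusted p = 0.032) and with the library number as a block (1.02, adjusted p = 0.023). That library also had the highest summed levels of 8 Kupffer cell markers (1288 FPM against 218.5 to 411.5 FPM in the other 4) and of 8 recruited macrophage markers (785 against 158.4 to 270.8 FPM), and their part in its Tgfb1 level was not tested. At week 48 controls had 3.06, 3.98 and 5.08 FPM and LIDPAD livers 7.09, 6.20, 7.85 and 6.28 FPM, a change of 0.71 ± 0.17 (adjusted p = 0.041).

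Hgf (ENSMUSG00000028864, chromosome 5, 16553495 to 16620152) encodes hepatocyte growth factor, a stellate cell product that acts on hepatocytes through the receptor Met. At week 4 its level was 22.0 and 29.5 FPM in controls and 17.7 and 19.2 FPM in LIDPAD livers, a difference of -0.46 ± 0.18 that was not called (adjusted p = 0.42). Control libraries of week 16 had 19.3, 20.1 and 25.5 FPM and LIDPAD livers 35.3, 35.7 and 37.2 FPM, a change of 0.74 ± 0.12 (adjusted p = 0.00093). At week 32 controls had 24.2, 24.3, 21.3 and 30.5 FPM and LIDPAD livers 29.5, 31.3, 40.3, 36.0 and 37.8 FPM. The groups met at 1 library on each side, and the change of 0.48 ± 0.14 (adjusted p = 0.026) was lost in 9 of 17 alternatives. Those included leaving out control library 1, 2 or 3 or LIDPAD library 3, 4 or 5, and counting LIDPAD libraries 4 and 5 as 1 (adjusted p = 0.054). Within the column patterns it was 0.52 (adjusted p = 0.058) and 0.27. Week 48 controls had 26.7, 29.0 and 29.3 FPM and LIDPAD livers 50.2, 39.1, 40.8 and 44.2 FPM, a change of 0.61 ± 0.10 (adjusted p = 0.017) with control library 3 among the other controls.

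Among markers of the resting cell and of pericytes, Rgs5 was called at weeks 16 and 32, Reln at week 48 and Hand2 in no week. Rgs5 (ENSMUSG00000026678, chromosome 1, 169655501 to 169695813) encodes a regulator of G protein signalling that is high in pericytes and stellate cells. At week 16 controls had 25.4, 28.2 and 30.1 FPM and LIDPAD livers 47.7, 45.7 and 49.4 FPM, a change of 0.76 ± 0.10 (adjusted p = 0.00025). Control libraries of week 32 had 26.3, 31.5, 36.8 and 28.9 FPM and LIDPAD livers 72.7, 57.3, 63.3, 52.1 and 49.7 FPM, a change of 0.92 ± 0.14 (adjusted p = 0.0010) called in all 17 alternatives counted, with 1.02 and 0.81 within the column patterns. At week 48 controls had 37.1, 31.1 and 54.6 FPM and LIDPAD livers 54.1, 53.8, 43.9 and 42.2 FPM. Control library 3 was the highest of the 7 there, and the change of 0.27 ± 0.19 was not called (adjusted p = 0.41). Without it the change was 0.50 (adjusted p = 0.0086).

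Reln (ENSMUSG00000042453, chromosome 5, 21884454 to 22344702) encodes reelin, a secreted glycoprotein that marks stellate cells in liver, and it was the marker with the most reads. Week 16 controls had 122.7, 139.3 and 149.8 FPM and LIDPAD livers 164.5, 165.9 and 166.9 FPM, a change of 0.28 ± 0.10 that was not called (adjusted p = 0.054). At week 32 controls had 122.2, 126.6, 135.4 and 133.9 FPM and LIDPAD livers 49.3, 138.1, 148.4, 131.1 and 141.5 FPM. Library 1, which had the highest Pdgfra level, had the lowest Reln level of all 38 libraries. The change there was -0.19 ± 0.29 (adjusted p = 0.68), and it was 0.11 (adjusted p = 0.47) without that library. Control libraries of week 48 had 155.2, 126.8 and 131.5 FPM and LIDPAD livers 191.3, 166.7, 198.0 and 200.3 FPM, a change of 0.46 ± 0.11 (adjusted p = 0.039).

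Hand2 (ENSMUSG00000038193, chromosome 8, 57320983 to 57324633) encodes a transcription factor of the stellate lineage, and it was called in no week. Its mean was lower in LIDPAD livers at weeks 1, 4, 8 and 12, with ratios of means of 0.703, 0.701, 0.726 and 0.853, and higher at weeks 16, 32 and 48, with 1.25, 1.47 and 1.43. At week 8 both controls, 1.44 and 1.45 FPM, lay above both LIDPAD libraries, 1.08 and 1.02 FPM, for a difference of -0.33 ± 0.19 (adjusted p = 0.35). In that week 28.3% of all tested genes were apart in the other direction, and the share apart in this direction was not counted. At week 48 Hand2 had 1.45, 1.39 and 1.52 FPM in controls and 1.39, 1.65, 2.85 and 2.40 FPM in LIDPAD livers, a difference of 0.36 ± 0.23 (adjusted p = 0.36). It shares 19.6% of its exon bases with Hand2os1 on the opposite strand, whose own level was 1.97 to 19.4 FPM, and without the strand setting their reads cannot be told apart.

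The calls of week 48 depended on single libraries. Without control library 3, 8 of 9 markers were called, with changes such as 1.74 for Pdgfra (adjusted p = 4.7e-07), 1.90 for Pdgfrb (adjusted p = 4.6e-07) and 0.98 for Des (adjusted p = 0.00063). Of all tested genes, 3377 of 15153 were then called higher, against 968 of 14807 with all libraries. Without any one of the other 6 libraries, 0 or 1 marker was called, and 67 to 275 of all tested genes were called higher. The edgeR test on whole reads called 2, Des and Hgf, with 612 of 14807 genes called higher. Of the 9 tested markers, control library 3 had the highest level of the 3 controls in all but Reln. In the same library the summed level of 8 cholangiocyte markers was 187.2 FPM against 20.1 and 25.6 FPM in the other controls, that of 8 recruited macrophage markers 99.7 against 26.2 and 28.3 FPM, and that of 10 portal fibroblast markers 40.6 against 7.46 and 6.46 FPM. Their part in the marker levels was not tested.

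Levels can be compared between genes only per length. Divided by the exon length in kilobases, the median control level was 6.58 FPM per kb for Rgs5, 5.25 for Reln, 3.16 for Hgf and 1.84 for Pdgfrb. Tgfb1 (0.665), Pdgfra (0.662), Acta2 (0.648), Des (0.644) and Hand2 (0.600) followed within a narrow range that was smaller than their spread over the 18 control libraries (SD 0.174, 0.412, 0.409, 0.107 and 0.148). Tagln was lowest, at 0.0838 FPM per kb. In LIDPAD libraries Rgs5 (9.86), Reln (5.67), Hgf (4.64) and Pdgfrb (4.29) again led, and Pdgfra (1.73) and Acta2 (1.34) came before Tgfb1 (1.02) and Des (0.924). These medians run across weeks whose tables were normalized separately.

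Across all 7 weeks, a joint fit of the 14 groups called 7 of 9 markers higher in LIDPAD livers, against 22.6% of all tested genes. These were Acta2, Des, Pdgfra, Pdgfrb, Rgs5, Hgf and Tgfb1, with Acta2 (0.79 ± 0.21, adjusted p = 0.0033) and Pdgfrb (0.73 ± 0.11, adjusted p = 6.3e-06) the largest. Reln (0.07 ± 0.10, adjusted p = 0.61) and Hand2 (-0.03 ± 0.11, adjusted p = 0.86; 0.10 after rescaling to equal totals) were not called. Without the 3 libraries that stand apart, Reln was called at 0.14 (adjusted p = 0.0066) and the count was 8. That call rests on the choice at week 4, since Reln was not called with both controls of that week kept (0.11, adjusted p = 0.061) or with library 1 left out in place of library 2 (0.070, adjusted p = 0.18). Rescaling to equal totals took the share of called genes that were higher from 58.3 to 88.6% in this mean and from 66.7 to 91.9% in the late minus early contrast. None of the 9 was called when weeks 1 to 12 were fitted alone.

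The diet difference was larger at weeks 16, 32 and 48 together than at weeks 1 and 4 for Pdgfra, Pdgfrb, Rgs5, Des and Hgf. The contrast takes the mean difference of weeks 16, 32 and 48 minus that of weeks 1 and 4, and it called 5 of 9 markers, against 11.3% of all tested genes. It was 1.86 ± 0.33 for Pdgfra (adjusted p = 0.00050), 1.37 ± 0.27 for Pdgfrb (adjusted p = 0.0011), 0.91 ± 0.26 for Des (adjusted p = 0.014), 0.81 ± 0.16 for Rgs5 (adjusted p = 0.0013) and 0.67 ± 0.13 for Hgf (adjusted p = 0.0011). Des lost its call without LIDPAD library 1 of week 4 (adjusted p = 0.064). Acta2 had a wide error at 1.25 ± 0.50 (adjusted p = 0.086), and it was called at 1.34 (adjusted p = 0.024) without the 3 libraries that stand apart, at 1.57 (adjusted p = 0.0038) with both week 4 controls kept and at 1.80 (adjusted p = 0.0018) with library 1 left out in place of library 2. Reln (0.27 ± 0.23, adjusted p = 0.46) was called at 0.37 (adjusted p = 0.019) without LIDPAD library 1 of week 32, but it was 0.24 (adjusted p = 0.12) without all 3, 0.36 (adjusted p = 0.016) with both week 4 controls kept and 0.49 (adjusted p = 0.00090) with library 1 left out in place of library 2. Tgfb1 (0.62 ± 0.31, adjusted p = 0.17) and Hand2 (0.68 ± 0.27, adjusted p = 0.087) were not called, but Hand2 was called at 0.86 (adjusted p = 0.038) after rescaling to equal totals. An F test that the 7 weekly differences are equal called Pdgfra (adjusted p = 0.0033), Rgs5 (adjusted p = 0.0043), Hgf (adjusted p = 0.0055) and Pdgfrb (adjusted p = 0.015), 4 of 9 against 11.4% of all tested genes.

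**Figure D3:**
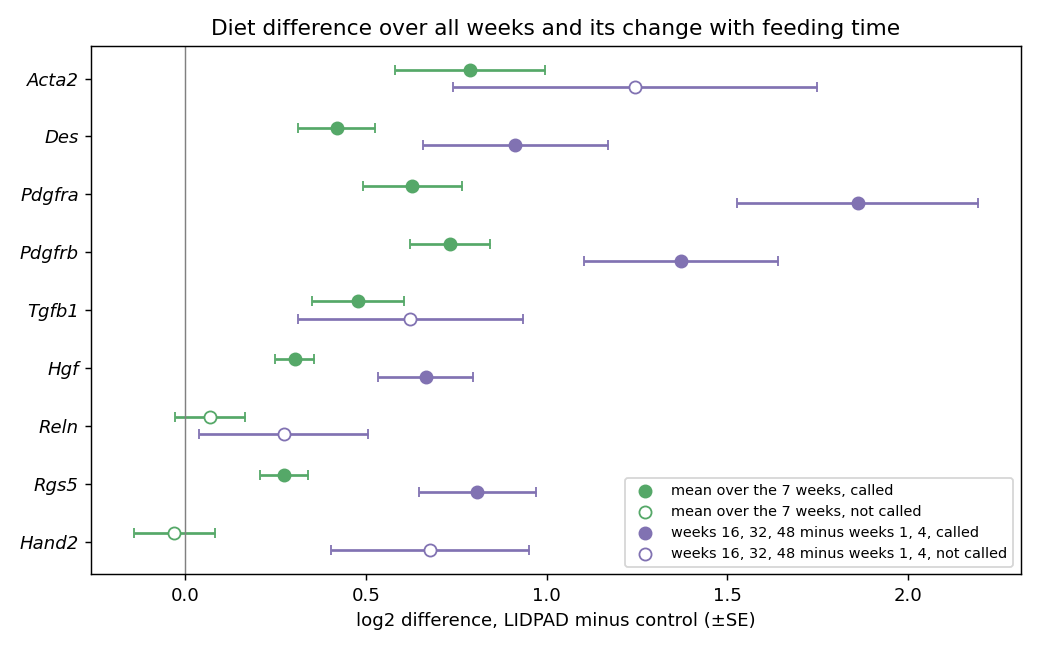
Log2 diet difference of the 9 tested markers in the joint fit, as the mean over the 7 weeks (green) and as the late minus the early difference (purple), with standard errors; filled points have an adjusted p under 0.05. Pdgfra has the largest purple value, 1.86, while both values of Reln are open points, at 0.07 (green) and 0.27 (purple).

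Other stellate genes were followed in lists. Of 20 further genes of activated stellate cells, 10 of 13 tested rose at week 8, 17 of 18 at week 12, 18 of 18 at week 16, 17 of 18 at week 32 and 10 of 18 at week 48, and none fell. This list holds the fibrillar collagens and their crosslinkers. Col1a1, a chain of type I collagen, went from 4.97 ± 1.75 FPM in controls (SD, n = 3) to 56.7 ± 7.9 FPM (n = 3) at week 16, a log2 change of 3.42 (adjusted p = 1.4e-06). Col3a1, type III collagen, went from 29.5 ± 1.9 to 246 ± 22 FPM at that time, a change of 3.04. Tnc, the matrix glycoprotein tenascin C, changed by 2.75. The median log2 change of this list was 1.66 at week 16 and 2.21 at week 32, where those of the markers were 0.83 and 0.91.

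Further genes of the resting stellate cell did not fall as a group. Of 20, 10 of 18 tested rose and 1 fell at week 16, 4 rose and 2 fell at week 32, and 8 rose and 0 fell at week 48. Adamtsl2, which encodes a secreted matrix protein, was called higher at 4 times, and went from 5.86 ± 0.19 to 19.6 ± 2.3 FPM at week 16 (SD, n = 3 each), a change of 1.65. Tcf21, a transcription factor of mesenchymal cells, changed by 0.64, 1.59 and 1.10 at weeks 16, 32 and 48, with adjusted p = 0.049, 0.0074 and 0.026. Hhip, an inhibitor of hedgehog ligands, fell against the list at weeks 12, 16 and 32, by 1.31, 1.69 and 2.85 on the log2 scale, and Angptl6 fell at weeks 12 and 32. Lrat, the enzyme that makes the stored retinyl esters, was picked after its values were seen and rose at weeks 12, 16 and 48, with 31.7 ± 6.4 FPM in controls against 56.4 ± 3.5 FPM at week 16 (adjusted p = 0.0012).

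Genes around the markers' pathways were also counted. Of 33 genes of the TGF-beta pathway (ligands, latent complex, receptors, SMADs, targets), 20 rose and 1 fell at week 16, and 19 rose and 1 fell at week 32. Thbs1, a thrombospondin that activates latent ligand, changed by 2.86 at week 16, and Nrros, which anchors latent ligand, by 1.34. Against the list, Smad4 fell by 0.45 at week 16, Smad7, an inhibitory SMAD, by 0.71 at week 12, and Furin, the convertase that cleaves the ligand precursor, by 0.42 at week 32. All 4 PDGF ligand genes rose at week 32 and 3 of 4 at week 16. At week 16 Pdgfb went from 0.922 ± 0.462 to 4.68 ± 0.59 FPM (SD, n = 3 each; adjusted p = 0.00027), Pdgfd changed by 1.02 and Pdgfa by 0.73, while Pdgfc, the remaining ligand gene, with 0.08 (adjusted p = 0.76), was not called.

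A list of 9 genes around the activation and reception of hepatocyte growth factor moved in both directions, with 3 higher and 4 lower of 7 tested at week 16. Besides activators and the receptor, the list holds Mst1, Mst1r and the inhibitor genes Spint1 and Spint2. Hgfac, the circulating HGF activator made by hepatocytes, fell at each of the 5 times from week 8, and at week 16 it had 192 ± 7 FPM in controls and 70.9 ± 5.3 FPM in LIDPAD livers (SD, n = 3 each). Mst1, a hepatocyte-made relative of Hgf, fell by 0.57 and the receptor Met by 0.44 at that time. The urokinase gene Plau rose by 2.12 and the membrane protease gene St14 by 2.06. The protease inhibitor genes Spint1 and Spint2 rose at 1 time each. Of the 3 reelin receptor and adaptor genes, Vldlr alone was tested in every week, and it was called in none (0.61 at week 16, adjusted p = 0.088), although its mean over all weeks in the joint fit was called (0.62 ± 0.16, adjusted p = 0.0035). Of 10 mesenchymal transcription factors, 2 of 7 tested rose at week 16, 3 at week 32 and 2 at week 48, none fell, and Ets1 rose at all 3 times.

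Contractile genes were called in part, and few genes of differentiated smooth muscle could be tested. Of 17 genes of the contractile and SRF-linked cytoskeleton, 7 of 15 tested rose at week 12, 9 at week 16, 6 at week 32 and 4 at week 48. Of the 15, 10 were called in at least 1 week, and Myl9, Cald1, Srf, Mrtfa and Mrtfb were called in none. Tpm2, a tropomyosin, changed by 2.00 at week 12 and 1.64 at week 16, Flna, filamin A, by 1.12 and Tagln2 by 1.83 at week 16. Of 9 vascular smooth muscle genes only 3 or 4 were tested in a week. Synpo2 rose at week 32 (1.43, adjusted p = 0.0037) and Pln fell at week 8, and no other was called in any week. Myh11, smooth muscle myosin, chosen after its values were seen, was 3.04 ± 0.84 FPM in controls and 2.67 ± 0.81 FPM in LIDPAD livers at week 16 (SD, n = 3 each). Of 9 pericyte genes 5 were tested, and 3 rose at week 16: Mcam, and the potassium channel genes Abcc9 and Kcnj8. Anpep fell at week 12. Abcc9 stands in the resting stellate list as well, as Tcf21 does in that of transcription factors.

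Markers of other cells moved as well. At week 8, when 0 of 9 markers were called, 7 of 8 recruited macrophage markers (median log2 change 1.91) and 3 of 7 Kupffer cell markers rose. In that week 10 of 13 activated stellate genes also rose, and Pdgfrb changed by 0.52 (limma adjusted p = 0.079). With 2 libraries per diet, these calls do not set an order in time. Of 10 portal fibroblast genes, 6 of 6 tested rose at weeks 16 and 32, and their summed level went from 5.91 to 8.02 FPM in controls to 27.5 to 33.0 FPM in LIDPAD livers at week 16. Dpt, dermatopontin, went from 1.77 ± 0.56 to 12.1 ± 1.5 FPM there (SD, n = 3 each), and Fbln2 changed by 1.46. Of 8 recruited macrophage markers 8 rose at weeks 16 and 32, and their sum was 22.6 to 23.6 FPM in controls against 144.8 to 227.9 FPM in LIDPAD livers at week 16. Of 8 Kupffer cell markers 4 of 7 tested rose at week 16, and of 8 cholangiocyte markers 4 of 5. Among the Kupffer cell markers, Marco was called lower at 2 times, and Timd4, Folr2 and Clec4f were called in no week. Of 6 mesothelial genes, Gpm6a rose at weeks 16, 32 and 48 and Wt1 at week 48. Of 8 hepatocyte markers 5 fell at week 16, 4 at week 32 and 3 at week 48, where 12.0%, 8.82% and 3.34% of all tested genes were called lower. Of 8 sinusoidal endothelium markers 1 rose and 1 fell at week 16, and 1 rose at week 32. At week 48, 2 of 3 tested T and NK cell genes and 3 of 5 tested B and plasma cell genes rose, and of 6 adipocyte genes Cfd alone rose, in every week. None of the 6 skeletal muscle and 6 exocrine pancreas markers passed the filter in any week. The part of these cells in the marker changes was not tested.

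**Figure D4:**
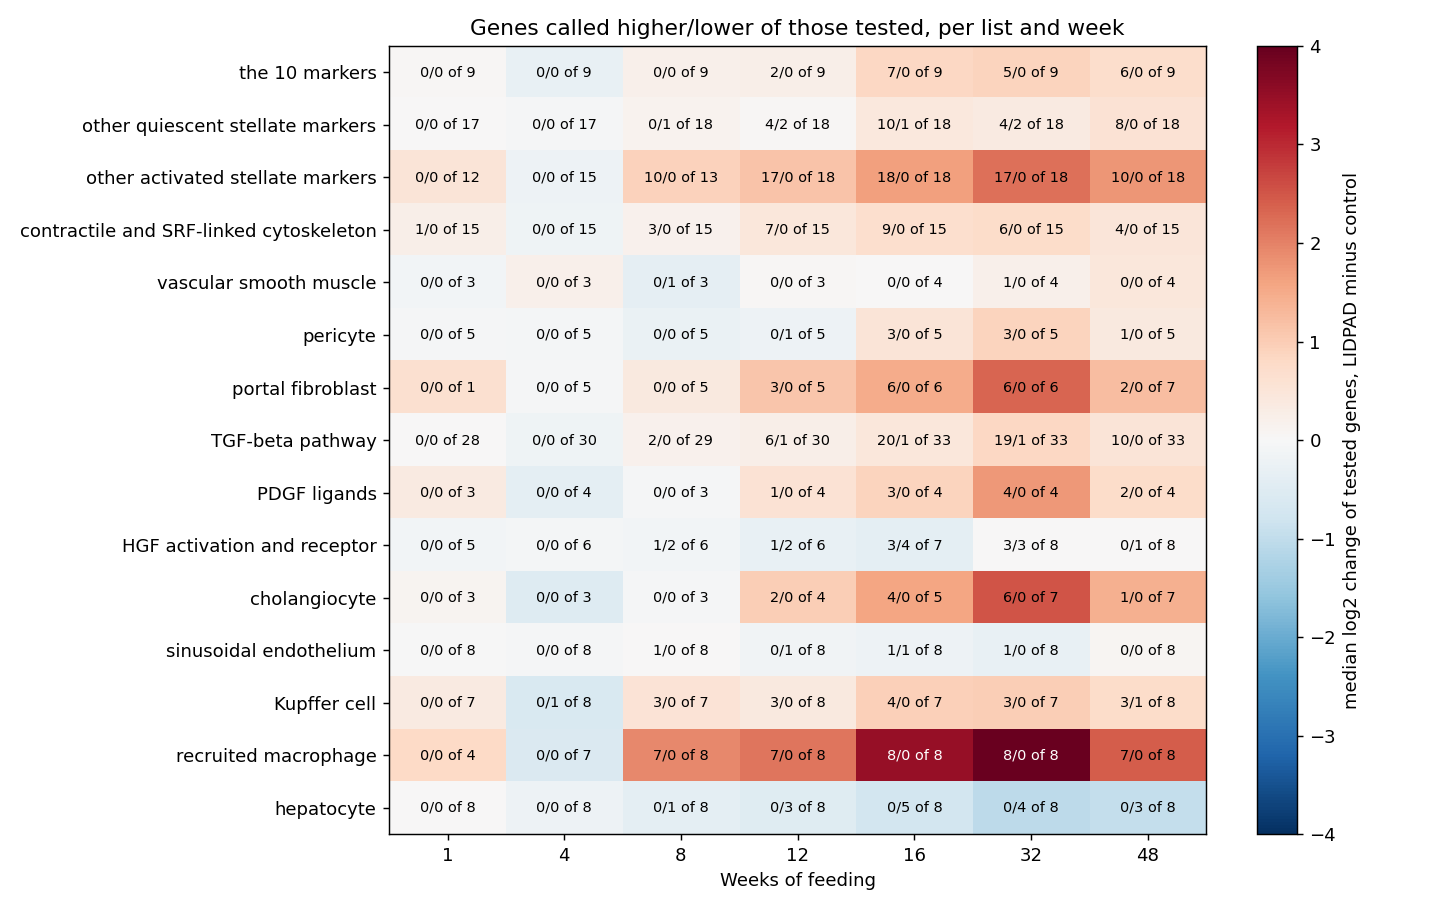
Number of genes called higher and lower, of those tested, for the 10 markers and 14 other lists at each feeding time; colour gives the median log2 change of the tested genes, LIDPAD minus control. The markers (top row) go from 0 of 9 at week 8 to 7 of 9 at week 16, activated stellate genes already reach 10 of 13 at week 8, and hepatocyte genes are called only lower.

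The markers varied together to different degrees. Over the 38 libraries, with each gene centred within its week, Pearson's r of log2 levels was 0.89 between Pdgfra and Rgs5, 0.88 between Des and Pdgfra and 0.87 between Pdgfra and Pdgfrb. These describe libraries that share the diets and size factors. Pdgfra and Reln had r = -0.11, and 0.50 without LIDPAD library 1 of week 32. The median r of a marker with the other 9 was highest for Pdgfrb (0.77), lower for Reln (0.26) and Hand2 (0.31), and lowest for Tagln (0.14).

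Among 10961 genes tested in every week and not predicted genes, the 3 most like each marker were named, by the same r. Pdgfrb was most like Col6a2 (0.96), Rcn3 (0.96) and Ccdc80 (0.96), and Acta2 most like Fstl1 (0.91), Ppic (0.89) and Serpinh1 (0.89), the collagen chaperone. Pdgfra was most like Bicc1 (0.97), Pkhd1 (0.97) and Slc25a24 (0.96). For Des these were Pamr1 (0.92), Afap1 (0.91) and Slc43a3 (0.90). Rgs5 was most like Rhoj (0.93), H2-M3 (0.93) and Ajuba (0.92), and Hgf most like Pam (0.91), Robo2 (0.89) and Adamts2 (0.87). Reln was most like Clec4f (0.83), a Kupffer cell lectin, then Lama1 (0.79) and Hmcn1 (0.78). Tgfb1 was most like Pitpna (0.89), Sdc3 (0.89) and Sec14l1 (0.88). The likeness was weaker for Hand2, led by Siva1 (0.69), Rplp1 (0.68) and Col4a5 (0.67), and for Tagln, led by Mpi (0.62), Heatr5a (0.61) and Kcna2 (0.60).

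**Figure D5:**
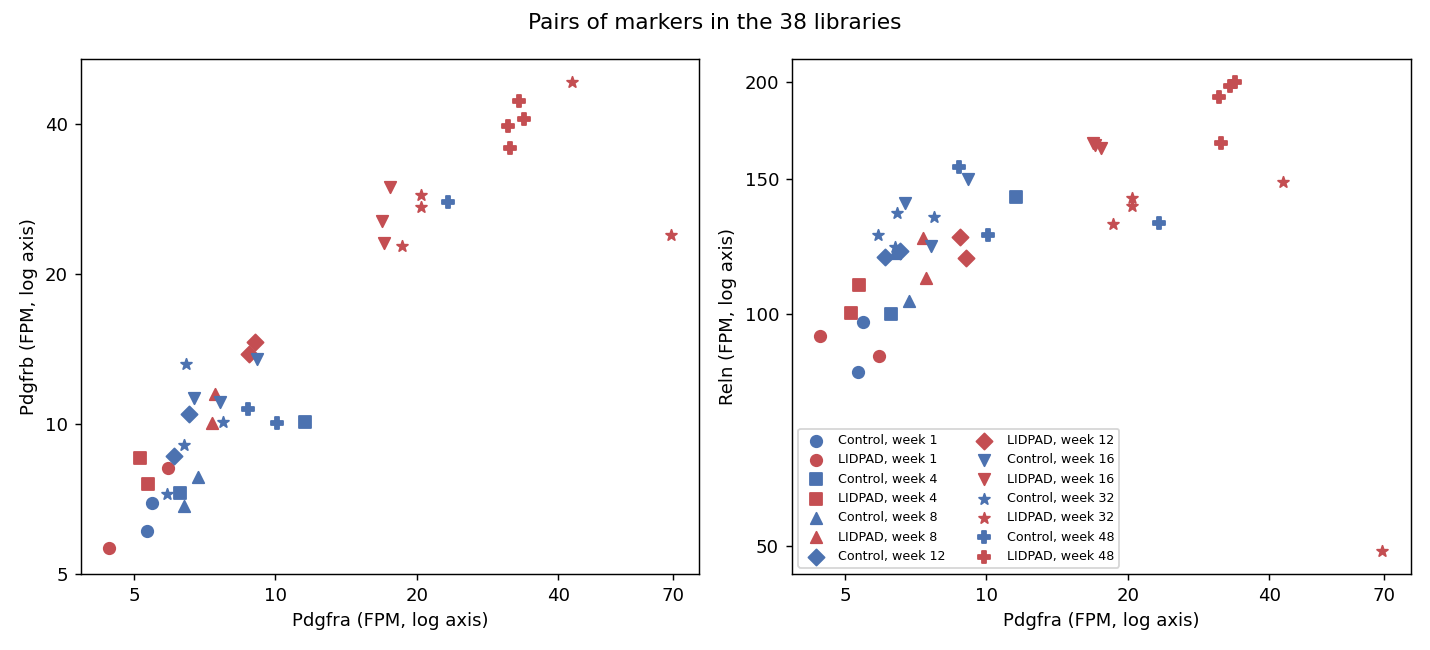
Pdgfrb against Pdgfra (left) and Reln against Pdgfra (right) in FPM on log axes, 1 point per library, with colour for diet and shape for week. LIDPAD library 1 of week 32 (red star at the far right) has the highest Pdgfra, 69.6 FPM, and the lowest Reln, 49.3 FPM.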

How the data were processed

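The authors' deposited signal values are FPM: each column's counts over its size factor, scaled to 1000000, for 54532 genes in 7 tables. Per the submitters' processing notes, HISAT2, featureCounts, DESeq2 and GRCm38 were used; versions, strand setting and filters are not given in the sources used here. Values were whole reads within 0.02 reads in 100% of cases. The 152 columns were averaged in blocks of 4 (chi-square per gene 1.98 to 2.27 within a block, 2.65 to 31.4 between blocks). Symbols and exons came from GENCODE release M21 (54409 genes matched), and promoter windows from RefSeq.

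Each week was fitted with limma 3.58.1 (R 4.3.3), with a mean-variance trend, two-sided, on log2(FPM + 0.5), for genes that reached 1 FPM in a number of libraries equal to the smaller group. Benjamini-Hochberg adjustment ran over all tested genes. A joint fit of 14 group means used genes at 1 FPM in at least 4 libraries, and compared only differences within weeks. Recovered reads were tested with edgeR 4.0.16 (quasi-likelihood, TMM) as an alternative. The functions were checked on simulated data. Other alternatives were pseudocounts of 0.1 and 1, no filter, rescaled totals, a replicate block, single libraries left out, and week 32 by column pattern. Counting LIDPAD libraries 4 and 5 of week 32 as 1, and leaving out 3 libraries that stand apart (or 2 of them, or week 4 control 1 in place of control 2), were chosen after seeing the data. Depth of 10.9 to 53.8 M reads limits the low genes.

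The 10 markers and 22 other lists (215 genes) were chosen with earlier results of these data known. Named list genes are the 3 called in most weeks per list, and those called against their list. Some genes that this rule names are not reported here. Tables were made with pandas 2.3.3 and numpy 2.4.6 under Python 3.11.15, plots with matplotlib 3.10.9.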

Additional observations from a re-analysis of the deposited data

Results flagged for a closer look

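Dixon's test was run on 30 combinations of a marker and a group of 4 or 5 libraries. In 3 of them a library lay apart from the rest of its group. At week 48 this was Acta2 in LIDPAD library 1 (5.28 FPM). At week 32 these were Pdgfrb in LIDPAD library 3 (48.6 FPM) and Reln in LIDPAD library 1 (49.3 FPM). Chance alone marks about 1 combination in 20. The 30 combinations reuse the same few libraries, so they are not independent.

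Weekly diet differences were unequal by the F test for Rgs5 (adjusted p = 0.0043), Hgf (adjusted p = 0.0055), Pdgfra (adjusted p = 0.0033) and Pdgfrb (adjusted p = 0.015). The late minus early difference passed the threshold for Des (0.91), Rgs5 (0.81), Hgf (0.67), Pdgfra (1.86) and Pdgfrb (1.37, all log2).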

How the results depend on the processing

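The 7 markers called at week 16 stayed called under each of the 12 alternatives, where the count was 7 or 8. At week 12 the count of 2 became 1 with no filter and 4 with rescaled totals, at week 8 the 0 became 1 with rescaled totals, and at week 48 the 6 became 2 with edgeR. At week 32 the 5 became 7 with rescaled totals (Des and Tgfb1 added), 3 within the column pattern of the week 16 libraries, and 3 with LIDPAD libraries 4 and 5 as 1 library. With single libraries left out, the count of higher markers ran from 0 to 1 at week 1, 0 to 1 at week 8, 0 to 3 at week 12, 3 to 6 at week 32 and 0 to 8 at week 48. The count of lower markers at week 4 ran from 0 to 3, and that of markers higher in the late minus early contrast from 4 to 7 (5 with all libraries). The 3 lower markers were Pdgfra, Rgs5 and Hgf without control library 1 of week 4. In that setting 412 of 13979 tested genes were called lower, against 22 of 13237 with all libraries. In the late minus early contrast, the 4 came without LIDPAD library 1 of week 4, where 1461 of 15546 genes were called higher. The 7 came without LIDPAD library 1 of week 32, where 1894 of 15423 genes were called higher. Weeks 1 to 12 alone called 0 of the 9 markers over all weeks, and Pdgfra (-0.026) and Rgs5 (-0.0099) changed sign there. The F test called 4 under all alternatives but 2: without LIDPAD library 1 of week 32 and control library 3 of week 48 it called 5, and without control library 1 of week 4 as well it called 6, with Acta2 and then Reln added.

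The library number as a replicate block gave 0 markers at week 48 in place of 6, and 16 genes in all in place of 1462. Libraries of the same number correlated at -0.12 to 0.11 in weeks 16 to 48. These values cannot show whether such libraries share more than a number, and at week 32 the number partly follows the column pattern. The cause of these changes was not tested. Over all genes, leaving out single libraries moved the calls to between 33 and 1123 at week 1 (250 with all libraries), to 855 at most at week 4 (38), to between 82 and 1665 at week 8 (743), to 853 at least at week 12 (2078), to 5714 at week 48 without control library 3 and to between 134 and 488 there without any one of the other 6 libraries (1462), to 1416 at least for late minus early (2642, without control library 2 of week 4) and to between 1017 and 2766 for the F test (1767). Rescaled totals gave 25 calls at week 4 and 3069 at week 48, and the column pattern with 1 control and 2 LIDPAD libraries gave 6904 at week 32 (3810), where the 2 LIDPAD libraries are nearly alike. Weeks 1 to 12 alone called 3004 genes (6027 in all weeks). Acta2, Hand2 and Tagln, at few reads, are limited by depth. Counts of the other gene lists were not recomputed under these alternatives.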
